A study of Mus musculus with 6 samples.

Results

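The DNA damage signalling and repair genes described here were chosen by name: 28 genes of the checkpoint and repair machinery were listed, and 27 of them had a usable probe set among the 18193 genes of the data. H2afx was read through its current symbol, H2ax, and Xrcc2 was not analysed here. A gene with several probe sets was read from the one with the highest mean over the 6 arrays. The arrays measured GFP-positive bone marrow mononuclear cells sorted from moribund C57BL/6 mice with N-myc-induced B-cell leukaemia, 1 Affymetrix array per label. Of these, 3 were Cdh1-intact (Mx1-Cre(-)/Cdh1f/f) and 3 Cdh1-deficient (Mx1-Cre(+)/Cdh1f/f), hereafter the intact and the deficient arrays.

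Mice of both groups were homozygous for the conditional gene-trap allele Cdh1f/f, received pIpC at 7 to 8 weeks of age and came from the same litters. Marrow was taken 4 weeks after the last pIpC dose and 2 days after 5-fluorouracil at 150 mg/kg, and the N-myc cDNA was carried by the retroviral vector pMXs-IG. How that marrow led to the moribund mice is not described in the labels. Mx1-Cre responds to interferon and is not restricted to B cells, and the intact mice lacked it, so Cre itself and the loss of Cdh1 cannot be told apart. The labels number the arrays without naming the mice, so p-values measure the spread between these samples. The Cdh1 of this study is the APC/C activator encoded by Fzr1, and the question was how leukaemia cells without it differed in expression.

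Damaged DNA is read by kinases that sit at the top of the checkpoint: ATR, brought to single-stranded DNA by ATRIP and switched on by the 9-1-1 clamp and TOPBP1, and ATM, brought to double-strand breaks by the MRN complex. Adaptor proteins then spread the signal along chromatin, and homologous recombination, the Fanconi anaemia pathway, end joining and mismatch repair mend the lesion. Many of these genes are transcribed most in cells that are preparing or copying their DNA, under E2F control, and replication errors and forks stalled by an oncogene such as MYC are known to engage them.

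The start regions of 4 members are shown because the genes stand for the patterns below: Mdc1, the one member whose groups did not overlap, Brca1 and Msh6, which were low on 1 intact array, and Bard1, which ran the other way. Each is the RefSeq promoter of assembly GRCm38.p6, from 250 bases before to 50 bases after the start, 5′ to 3′ on the gene's strand, with letters matching an E2F motif in capitals. The windows are chr17:35841248-35841547 (plus strand) for Mdc1, chr11:101551906-101552205 (minus) for Brca1, chr17:87974800-87975099 (plus) for Msh6 and chr1:71102923-71103222 (minus) for Bard1.
Mdc1: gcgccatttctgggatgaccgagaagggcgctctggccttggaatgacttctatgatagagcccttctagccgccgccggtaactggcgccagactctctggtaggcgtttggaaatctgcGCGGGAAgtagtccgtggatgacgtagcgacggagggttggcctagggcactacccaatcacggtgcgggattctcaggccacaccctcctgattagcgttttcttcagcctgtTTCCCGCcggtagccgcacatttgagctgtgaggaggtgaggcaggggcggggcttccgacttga
Brca1: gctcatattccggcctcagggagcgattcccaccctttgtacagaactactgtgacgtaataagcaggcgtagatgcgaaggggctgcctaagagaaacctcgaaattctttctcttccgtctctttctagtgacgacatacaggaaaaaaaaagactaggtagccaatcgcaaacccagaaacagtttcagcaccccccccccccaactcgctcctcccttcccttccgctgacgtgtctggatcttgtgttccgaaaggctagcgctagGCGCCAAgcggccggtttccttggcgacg
Msh6: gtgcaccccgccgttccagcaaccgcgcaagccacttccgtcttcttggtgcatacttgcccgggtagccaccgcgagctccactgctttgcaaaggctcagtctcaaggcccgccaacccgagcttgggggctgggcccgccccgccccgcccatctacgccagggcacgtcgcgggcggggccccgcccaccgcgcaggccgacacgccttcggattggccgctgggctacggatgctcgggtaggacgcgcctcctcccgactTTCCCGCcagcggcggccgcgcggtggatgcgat
Bard1: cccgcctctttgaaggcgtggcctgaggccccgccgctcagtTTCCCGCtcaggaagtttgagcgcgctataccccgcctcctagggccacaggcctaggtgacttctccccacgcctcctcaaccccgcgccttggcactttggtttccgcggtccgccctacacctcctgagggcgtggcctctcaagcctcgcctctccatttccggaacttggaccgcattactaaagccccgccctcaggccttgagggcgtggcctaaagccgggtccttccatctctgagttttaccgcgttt

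The E2F motif was searched on either strand as TTCCCGC, also spelled TTGGCGC, further spelled TTCGCGC and finally spelled TTGCCGC. It was found in the promoters of 8 of the 19 members that the table holds (42.1%), which were Topbp1, Mdc1, Brca1, Bard1, Brca2, Blm, Fanci and Msh6. Of all genes with a RefSeq promoter 10.9% had a match, and 15.8% of those with a promoter of at least 50% GC, a level that every member promoter passed (lowest 52.3%). In Mdc1 the matches began 129 and 15 bases before the start, in Bard1 208 bases before it, and in Brca1 and Msh6 at bases 22 and 17 of the transcript. A match was present in 5 of the 13 members with a promoter that were lowest on intact array 1, and in 3 of the other 6. The E-box CACGTG, the sequence that MYC proteins bind, was found in 1 of the 19 (Parp1). It was found in 8.09% of all genes and 10.3% of those with at least 50% GC. The element TTTGAA of late cell cycle genes was found in 2 of the 19 (Hus1 and Bard1). Of all genes 20.2% had it, and 11.5% of those with at least 50% GC. CCAAT was found in 9, against 41.1% of all genes and 38.0% of those with at least 50% GC. A match is a description of the letters and was not tested as a site.

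The arrays were uneven in cell type markers, and the part of this in the comparisons below was not tested. The mean log2 level of 11 of 12 B-lineage markers, those of the labelled cell type, was 4.74 on intact array 2 and 7.82 to 8.57 on the other 5. That array was the lowest for 9 of the 11 (Cd79b at 4.35, Cd22 at 6.00). Igll1 (6.63) and Rag1 (3.30) lay there within the range of the other arrays. On the same array 12 of 13 T and NK markers averaged 8.37, against 4.69 and 6.25 on intact arrays 1 and 3 and 4.74 to 4.89 on the deficient arrays. It was the highest array for 8 of the 12, with Cd3d at 12.55 but Cd4 only at 5.64 against 5.41 to 5.58 elsewhere. Cd8a (5.27) and Gzmb (4.03) lay within the range of the other arrays, and Klrd1 (2.86) and Prf1 (5.25) were lowest there. The 10 neutrophil markers averaged 6.11 to 10.19 in the intact and 9.27 to 11.29 in the deficient group, the 6 monocyte and macrophage markers 4.88 to 6.82 and 5.83 to 7.30, and 5 of 7 erythroid markers 4.85 to 6.85 and 4.82 to 5.71. Stromal and endothelial markers stayed at 4.63 to 4.73 on all arrays. Fzr1 itself read 8.92, 8.04 and 8.92 on the intact arrays and 8.10, 7.73 and 8.22 on the deficient arrays, which overlap. Whether its probes detect the trapped transcript is unknown here. Mycn, the transduced oncogene, read 13.13 to 13.70 on all 6. In such sorted populations fewer cells of a type and less RNA per cell cannot be told apart.

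**Figure D1:**
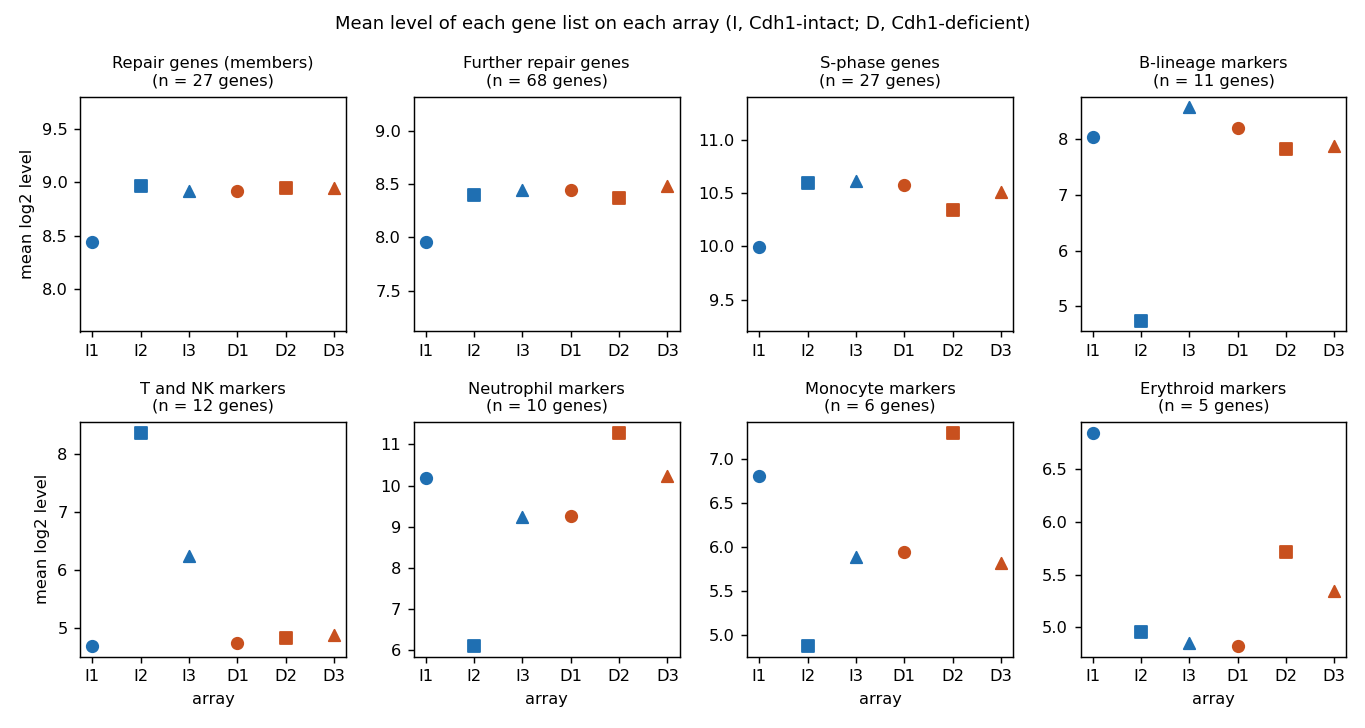
Mean log2 level (vertical axes, each with its own range) of 8 gene lists on each array (I1 to I3, intact; D1 to D3, deficient; 1 point per array). The repair genes are level on 5 arrays at 8.92 to 8.96 and lower on I1 at 8.44, while the B-lineage markers are low and the T and NK markers high on I2.

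No repair gene passed the test between deficient and intact cells. Of the 27 members 0 had a limma adjusted p under 0.05, as did 0.00% of all 18193 genes, and the lowest adjusted p of a member was 0.849. At an unadjusted p under 0.05 there was 1 member, Mdc1, which was higher, against 4.01% of all genes in that direction, and no member was lower, against 1.49%. The groups did not overlap for 1 member (Mdc1 again) against 11.7% of all genes (6.65% higher, 5.09% lower). Both counts are near or under the background. The differences ran from −0.64 (Bard1) to 0.60 (Mdc1) on the log2 scale, and 4 of the 27 exceeded 0.5 in size: Mdc1, Brca2 and Rad1 upward and Bard1 downward.

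The sign of the differences leaned one way. In deficient cells 22 of 27 members were higher, with a median difference of 0.12, where 50.9% of all genes were higher with a median of 0.00 and 59.1% of the 10994 genes at or above the median probe set level were higher with a median of 0.06. The lean depended on 1 array: without intact array 1 it was 14 of 27 with a median of 0.01. The share was then 52.1% of all genes and 55.8% of those at or above the median level. Groups then lay apart for 3 members upward and 2 downward, against 12.0% and 10.4% of all genes. Without intact array 2, the array with the highest mean of the T and NK markers, it was 24 of 27 with a median of 0.24. The share was then 50.8% of all genes and 58.4% of those at or above the median level. The S-phase genes also shifted with these arrays: 18 of 27 were higher over all arrays (median 0.10). Without intact array 1 it was 5 of them (median −0.12), and without intact array 2 it was 23 (median 0.17). The interval of the difference bounds what these arrays could have missed. For 18 of 27 members the 95% interval excluded a difference of 1 log2 unit in either direction, and for 26 it included 0. Bard1, Brca2, Rad1, Exo1, Prkdc, Msh6, Brca1, Parp1 and Mdc1 were the 9 whose interval reached past 1 unit.

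**Figure D2:**
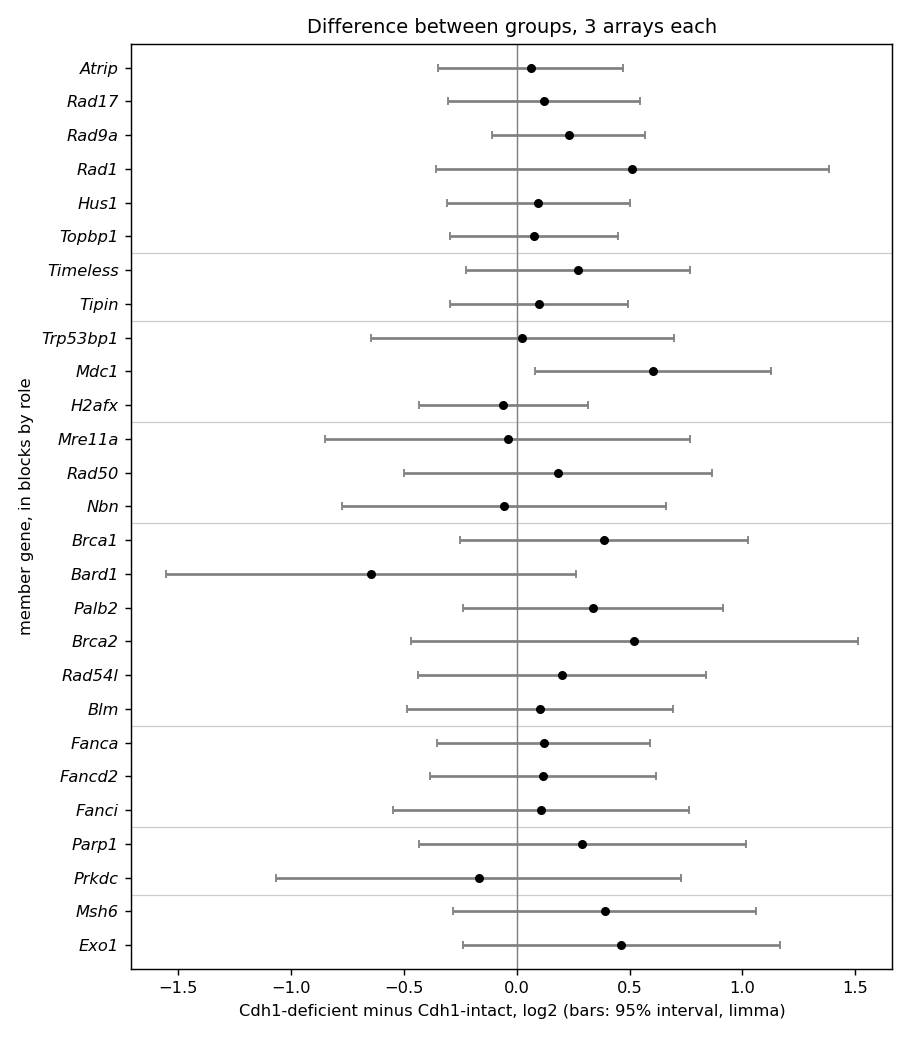
Difference between the groups for each of the 27 members (horizontal axis, log2 units, deficient minus intact, 3 arrays each; bars, 95% interval from limma), in blocks by role. Points lie right of 0 for 22 genes, and the bar of Mdc1 alone clears 0 before adjustment.

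The 6 genes that bring and switch on ATR had positive differences over all arrays, from 0.06 (Atrip) to 0.51 (Rad1), and none passed the test. Rad1, a subunit of the ring-shaped 9-1-1 clamp, read 7.68, 8.45 and 9.05 on intact arrays 1, 2 and 3 and 9.19, 8.75 and 8.78 on deficient arrays 1, 2 and 3. The groups overlapped through intact array 3, and the difference was 0.51 (SE 0.36, limma adjusted p = 0.849), or 0.16 without intact array 1. Rad9a, a second subunit of the clamp, read 8.07, 7.84 and 7.74 against 8.07, 8.28 and 7.98, for a difference of 0.23 (SE 0.14). It was the one gene of this block whose difference was larger without intact array 1, at 0.32. The third subunit, Hus1, and the clamp loader Rad17 differed by 0.10 (SE 0.16) and 0.12 (SE 0.17), and both turned slightly negative without that array (−0.04 and −0.03). Atrip, the partner of ATR, held within 6.92 to 7.51 on all 6 arrays, for a difference of 0.06 (SE 0.17). Topbp1, which activates ATR, differed by 0.08 (SE 0.15), but its second probe set, at 6.68 to 8.07, differed by −0.69 (SE 0.31).

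The fork protection partners Timeless and Tipin, which hold polymerase and helicase together and help ATR signal to its effector kinase, were both lowest on intact array 1. Timeless read 9.19, 9.79 and 9.79 on the intact and 9.82, 10.04 and 9.73 on the deficient arrays, a difference of 0.27 (SE 0.20). Tipin read 11.67, 12.01 and 12.23 against 12.13, 12.08 and 12.00, a difference of 0.10 (SE 0.16). Apart from intact array 1 the groups overlapped closely, and without it the differences were 0.07 and −0.05.

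Of the adaptors that gather at breaks, Mdc1 had the largest upward difference, and of the 27 members only Bard1 differed more in size. MDC1 binds phosphorylated histone H2AX and holds ATM and the ubiquitin ligases of the response at the break. It read 6.86, 7.29 and 7.53 on the intact arrays and 7.79, 8.08 and 7.62 on the deficient arrays, so that all deficient arrays lay above the intact ones, the nearest pair at 7.62 and 7.53. The difference was 0.60 (SE 0.21, 95% interval 0.08 to 1.13, unadjusted p = 0.030, limma adjusted p = 0.849), and 0.42 (SE 0.18) without intact array 1 and 0.64 (SE 0.25) without intact array 2. H2afx, the gene of the histone that MDC1 reads, was at 11.13, 11.26 and 11.29 against 11.31, 10.87 and 11.32, a difference of −0.06 (SE 0.15). Trp53bp1, whose product 53BP1 steers breaks toward end joining, was at 9.03, 10.12 and 9.55 against 9.61, 9.59 and 9.59. Its 3 deficient arrays agreed to an SD of 0.01 while the intact arrays spread by 0.55, and the difference of 0.03 (SE 0.27) became −0.24 without intact array 1 and 0.30 without array 2.

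The MRN genes differed more among the intact arrays than between the groups. MRE11 is the nuclease of this break-sensing complex, RAD50 the tethering arm and NBN the subunit that recruits ATM. Mre11a read 8.39, 9.70 and 9.14 on intact arrays 1, 2 and 3 and 9.09, 8.90 and 9.12 on the deficient arrays. Rad50 read 8.08, 9.11 and 8.94 against 8.86, 8.84 and 8.98. Nbn read 7.39, 8.56 and 7.96 against 7.91, 7.88 and 7.95. In all 3 genes the lowest array was intact 1, the highest was intact 2, and the 3 deficient arrays lay between them. The differences were −0.04 (SE 0.33), 0.18 (SE 0.28) and −0.05 (SE 0.29) for Mre11a, Rad50 and Nbn. They were −0.38, −0.13 and −0.35 without intact array 1 and 0.27, 0.39 and 0.24 without array 2, so the sign of all 3 depended on which of the 2 arrays was left out.

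The recombination genes held Brca2, the member farthest down on intact array 1, and Bard1, the one negative difference over 0.5 in size. BRCA2 acts on resected DNA ends in homologous recombination, PALB2 links it to BRCA1, and BARD1 is the obligate partner of BRCA1. Brca2 (chromosome 5) read 7.99, 9.55 and 8.97 on the intact arrays and 9.18, 9.23 and 9.66 on the deficient arrays, a difference of 0.52 (SE 0.40), or 0.10 and 0.88 without intact array 1 and 2. Chromosome 5 leaned the same way as a whole: 582 of the 703 at or above the median level were higher in deficient cells, with a median of 0.34, and the part of this in Brca2 was not tested. Brca1 read 8.10, 8.82 and 9.02 against 8.82, 9.15 and 9.12 (difference 0.39, SE 0.26), and Palb2 7.17, 7.53 and 8.07 against 8.01, 7.95 and 7.82 (difference 0.34, SE 0.23). Both were again lowest on intact array 1, and without it the differences were 0.11 and 0.13.

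Bard1 ran opposite to its partner. It read 6.52, 6.47 and 5.49 on the intact and 5.12, 6.06 and 5.37 on the deficient arrays, a difference of −0.64 (SE 0.37, limma adjusted p = 0.849). The groups overlapped through intact array 3, and the difference stayed negative with each array left out. Its single probe set read as low as 5.12, close to the array medians of 5.07 to 5.13. Rad54l, a DNA motor protein of homologous recombination, read 8.10, 8.76 and 8.59 against 8.80, 8.25 and 8.9998. The groups overlapped, and the difference of 0.20 (SE 0.26) was 0.01 without intact array 1, 0.04 without deficient array 3 and 0.42 without deficient array 2. Its 3 further probe sets differed by 0.28 to 0.64 in the same direction. Blm, the helicase that undoes crossed strands and is mutated in Bloom syndrome, read 8.68, 9.15 and 8.93 against 8.55, 9.30 and 9.22 and differed by 0.10 (SE 0.24).

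The Fanconi anaemia genes, which act on cross-linked strands, gave nearly equal differences on their chosen probe sets, from unlike arrays. Fancd2 and Fanci encode the pair that is ubiquitinated at the lesion, and Fanca a subunit of the ligase complex that does so. Fancd2 read 6.92, 7.44 and 7.67 on the intact arrays and 7.50, 7.44 and 7.44 on the deficient arrays. Fanci read 6.96, 8.02 and 7.58 against 7.69, 7.56 and 7.64. Both had their lowest value on intact array 1 and a deficient SD under that of the intact arrays (0.04 against 0.39 and 0.07 against 0.53). Fanca was highest on that array, at 8.66, with 8.04 and 8.14 on the other intact and 8.53, 8.24 and 8.42 on the deficient arrays. The differences were 0.12 (SE 0.20) for Fancd2, 0.11 (SE 0.27) for Fanci and 0.12 (SE 0.19) for Fanca. Without intact array 1 they parted to −0.10, −0.17 and 0.31. A further probe set of Fancd2, at 6.15 to 7.33 and also lowest on intact array 1, differed by 0.51 (SE 0.25). Its other sets, at lower levels, differed by −0.02 and 0.02.

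Parp1 and Prkdc mirrored each other on intact array 2. Parp1, the sensor of strand breaks that makes poly(ADP-ribose), read 10.91, 10.13 and 11.21 on the intact and 11.22, 10.81 and 11.10 on the deficient arrays. Prkdc, the catalytic subunit of DNA-PK, which end joining and the assembly of antigen receptor genes need, read 7.73, 9.05 and 7.99 against 7.84, 8.37 and 8.07. On intact array 2 Parp1 lay 0.92 below the mean of the other 5 arrays and Prkdc 1.05 above it. The differences of 0.29 (SE 0.29) and −0.17 (SE 0.36) became −0.02 and 0.23 without that array.

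Msh6 and Exo1 had the lowest block mean on intact array 1 relative to the rest. MSH6 recognises mismatched bases and EXO1 is the exonuclease that removes the faulty strand and also resects breaks. Msh6 read 9.64, 10.51 and 10.60 on the intact and 10.62, 10.80 and 10.51 on the deficient arrays, a difference of 0.39 (SE 0.27). Exo1 read 8.04, 8.68 and 9.16 against 9.07, 8.99 and 9.21, a difference of 0.46 (SE 0.29). Without intact array 1 the differences shrank to 0.09 and 0.17.

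**Figure D3:**
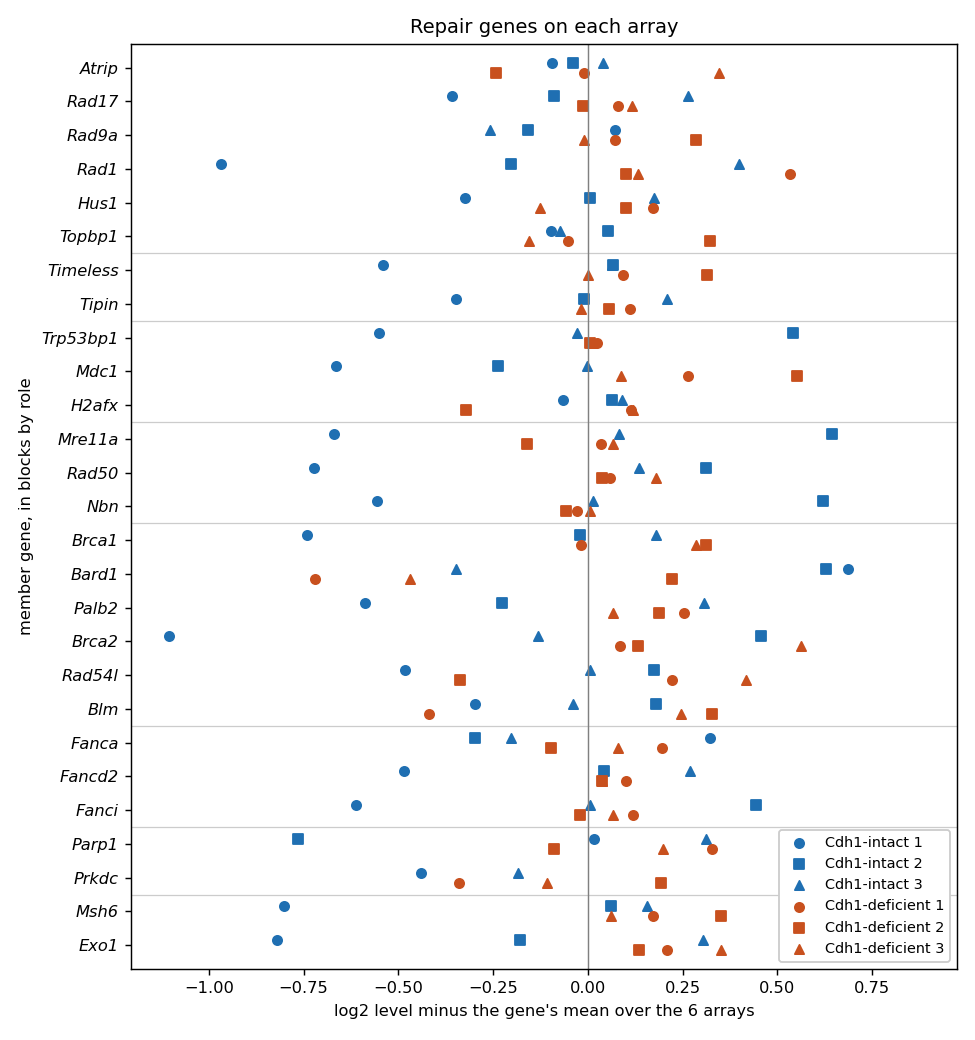
Level of each member on each array as the log2 level minus the gene's own mean over the 6 arrays (horizontal axis; colour, group; shape, replicate number), in blocks by role. Intact array 1 (blue circles) is the leftmost point for 19 of 27 genes, and intact array 2 (blue squares) the rightmost for all 3 MRN genes.

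Across the blocks, intact array 1 was the array that differed. It held the lowest of the 6 values for 19 of 27 members, against 20.1% of all genes and 26.2% of the genes at or above the median level. For 16 members it lay at least 0.5 below the mean of the other 5 arrays, against 11.4% of all genes. That share includes genes at low levels, and none at matched level is given here. Brca2 (1.33 below) and Rad1 (1.16 below) were farthest down, followed by Exo1 and Msh6, and the exceptions were Bard1 (0.82 above), Fanca (0.39 above), Rad9a (0.09 above) and Parp1 (0.02 above). The members' mean level was 8.44 on that array, 8.96 and 8.92 on intact arrays 2 and 3, and 8.92, 8.94 and 8.95 on the deficient arrays. On the same array 27 S-phase genes averaged 9.997 against 10.34 to 10.61 on the others, with 22 of the 27 at their lowest there (Mcm7 at 12.23 against 12.49 to 12.86). Pcna, the S-phase gene of highest mean level, read 12.76 there and was lowest on deficient array 2, at 12.72. Cdt1, Tyms, Fen1 and Ccne1 also had their lowest value on another array. The erythroid markers averaged 6.85 on intact array 1 against 4.82 to 5.71 elsewhere. Of the 5 measured, Alas2 (9.31 against 4.82 to 5.61) and Slc4a1 (9.70, with 8.40 on deficient array 2 and 5.10 to 7.17 on the others) held most of this, Klf1 read 5.66 against 4.68 to 5.17, and Hba-a1 (3.50) and Epor (6.07) lay within the range of the others. The part of either in the members' levels was not tested.

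The spread inside the groups was unequal as well. The SD was larger among the intact than among the deficient arrays for 22 of 27 members, against 65.5% of all genes, with a median SD of 0.45 against 0.16. Over all genes these medians were 0.21 and 0.15. Over the genes at or above the median probe set level they were 0.27 and 0.18, with the larger SD among the intact arrays for 68.7%. The inequality was not particular to the members. Among the S-phase genes the SD was larger in the intact arrays for 26 of 27, with medians of 0.40 and 0.16. For the further pathway genes it was 54 of 68, with medians of 0.38 and 0.18. The median SE of a member's difference was 0.26 and that of all genes 0.16. By this SE the comparison was less precise for the median repair gene than for the median of all genes, which include those at low levels.

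Intact array 2 stood apart in fewer members. On intact array 2, 7 members lay at least 0.5 above the mean of the other 5 arrays, against 9.98% of all genes: Prkdc, Mre11a, Nbn, Bard1, Trp53bp1, Brca2 and Fanci. Parp1 was the 1 member at least 0.5 below on this array, against 12.2% of all genes, and both shares include genes at low levels. This array was the highest for 8 of 12 T and NK markers and the lowest for 9 of 11 B-lineage markers. It was also the lowest array for 9 of 10 neutrophil markers (mean 6.11 against 9.24 to 11.29) and for 5 of 6 monocyte and macrophage markers (mean 4.88 against 5.83 to 7.30). The part of these in the members' levels was not tested. Its S-phase genes, at 10.60, were level with those of intact array 3 at 10.61.

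**Figure D4:**
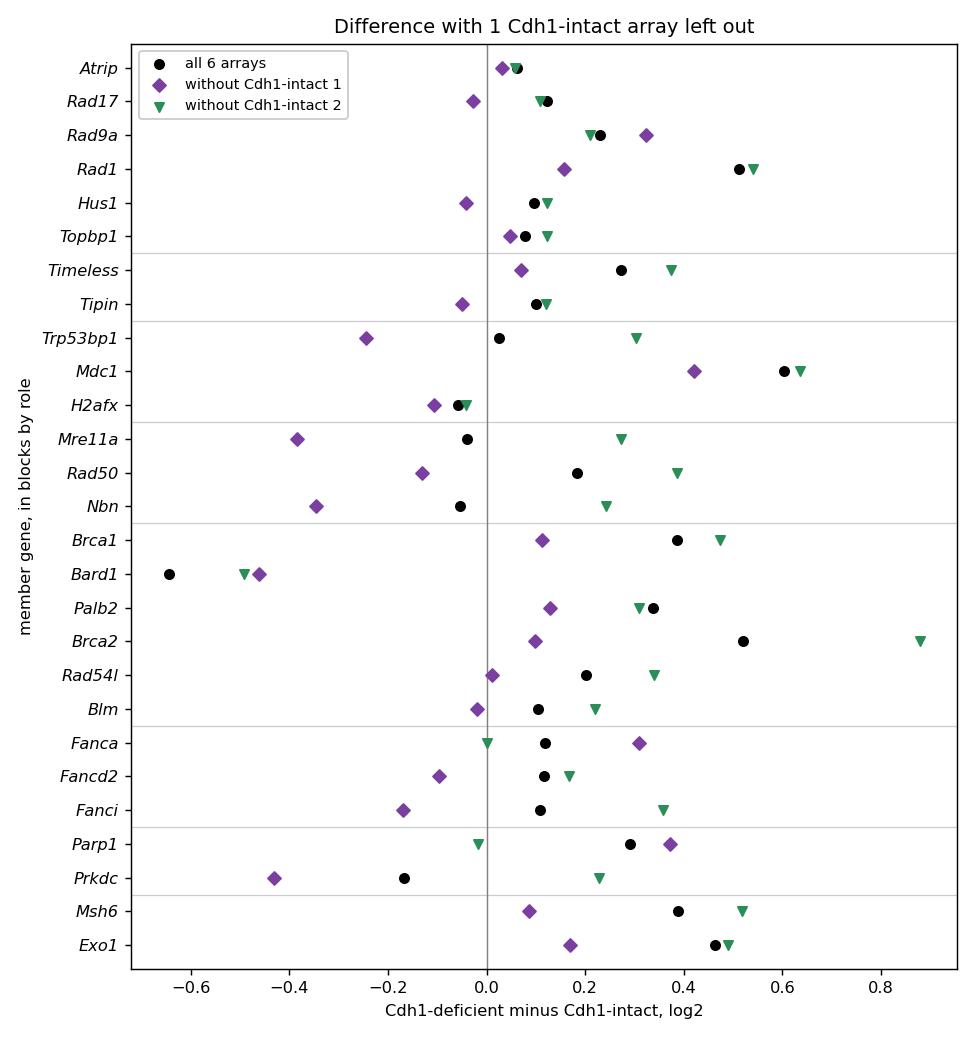
Difference of each member between the groups (horizontal axis, log2 units, deficient minus intact) with all 6 arrays (circles), without intact array 1 (diamonds) and without intact array 2 (triangles). Leaving out array 1 moves 8 genes across 0, Rad50 among them, and leaves all 3 MRN genes negative, while leaving out array 2 puts 24 of 27 at or above 0.

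Other genes of the same pathways were split in a similar way. Of 74 listed genes that are no members 68 were measured, and 0 of them passed (lowest limma adjusted p = 0.849). At an unadjusted p under 0.05, 4 were higher and 0 lower, against 4.01% and 1.49% of all genes. In deficient cells 48 of the 68 were higher (70.6%), with a median difference of 0.16. Over all genes it was 50.9%, and 59.1% of those at or above the median level. Without intact array 1 it was 33 (48.5%) with a median of −0.01, against 52.1% and 55.8%. That array was the lowest of the 6 for 41 of the 68 (60.3%), against 20.1% of all genes and 26.2% of those at or above the median level. Among the sub-lists, 13 of 15 further recombination genes were higher (median 0.23) and 8 of 10 further Fanconi genes (median 0.19). So were 9 of 11 genes of the checkpoint kinases, the single-strand binding proteins and the fork (median 0.16). The shares beside these are again 50.9% and 59.1%. Without intact array 1 the counts were 9 of 15 (median 0.02), 6 of 10 (median 0.04) and 3 of 11 (median −0.10, the opposite direction), against 52.1% and 55.8%. The end joining and chromatin ubiquitin genes were split, 5 of 9 higher with a median of 0.02, and so were the mismatch, base and nucleotide excision genes, 13 of 23 with a median of 0.02. Without that array they were 3 of 9 (median −0.23) and 12 of 23 (median 0.11).

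The 4 further genes whose deficient arrays all lay above the intact ones were Rad9b, Chek2, Ung and Mutyh, 4 of 68 where 6.65% of all genes did so. Chek2, the kinase that ATM switches on, read 6.82, 7.69 and 7.76 against 8.34, 8.28 and 8.16, a difference of 0.84 (SE 0.27). Rad9b, a relative of Rad9a, read 4.80, 5.11 and 4.72 against 5.73, 6.44 and 6.37, a difference of 1.30 (SE 0.23) at levels near the array medians on the intact side. Ung, the glycosylase that removes uracil from DNA, read 9.49, 10.09 and 9.98 against 10.56, 10.26 and 10.52, a difference of 0.59 (SE 0.19). These 3 lie on chromosome 5, like Brca2, where 82.8% of the genes at or above the median level were higher. Mutyh (chromosome 4), the glycosylase for adenine paired with oxidised guanine, differed by 0.50 (SE 0.18), and Lig3, the ligase of single-strand break repair, by 0.54 (SE 0.22) with overlapping groups.

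In the other direction Uimc1 and Ogg1 were lower on all deficient arrays, 2 of 68 where 5.09% of all genes were. Uimc1, which encodes the ubiquitin reader RAP80 of a BRCA1 complex, differed by −0.28 (SE 0.13), and Ogg1, the glycosylase for oxidised guanine, by −0.28 (SE 0.13). Ercc1 (−0.19, SE 0.11), Polb (−0.58, SE 0.33) and Fancl (−0.31, SE 0.22) followed with overlapping groups. None of these 10 passed the test over all genes.

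The readings of a member also depended on the probe set. Of the 27 members 13 had more than 1, and of their 26 further probe sets 13 differed in the opposite direction to the chosen one, in 10 genes. Several of those 26 lay near the floor, such as the second probe sets of Rad50 (3.07 to 3.44) and Fanci (2.97 to 3.42). Some further sets repeated the array pattern of the chosen one and some did not. The 2 bright sets of Parp1 beside the chosen one were lowest on intact array 2, at 10.13 and 9.98. The low level on intact array 1 recurred for Brca1 (5.29 against 5.96 to 6.24), Exo1 (5.50 against 5.99 to 6.42) and Rad54l (5.40 against 6.65 to 6.95). The second set of Timeless was lowest on deficient array 2 instead, at 7.28, and that of Topbp1 was highest on intact arrays 1 and 2, at 7.99 and 8.07.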

How the data were processed

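Expression was measured on 6 Affymetrix arrays. The deposited table holds log2 levels for 45101 probe sets, which the authors made with RMA, per the submitters' processing notes (version not given in the sources used here). RMA equalises the distributions of the arrays, which hides a change in total RNA per cell. With 3 arrays a group, their number limits the precision.

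Gene symbols came from the platform's annotation: 34945 carried 1 symbol and 932 several, the latter not used, and 64 controls were left out. Each gene took its probe set with the highest mean. Groups were compared over all 18193 genes with limma 3.58.1 under R 4.3.3 (functions lmFit and eBayes, two-sided, Benjamini-Hochberg over all genes, threshold 0.05), and the code was tested on simulated data. Differences are Cdh1-deficient minus Cdh1-intact, with the moderated standard error (SE).

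The members and lists were chosen with earlier results of these data known. Genes named beside the members were, by rule, the 5 further pathway genes of smallest p in each direction, Fzr1 and Mycn, and up to 2 markers or S-phase genes per list with the highest mean level. Further S-phase genes and erythroid, T and NK and B-lineage markers were named outside this rule, to show which ones followed the mean of their list. Alternatives were other normalization, centring, level filter, probe set rules, variance models, array weights, a replicate block and each array left out. Promoters came from a RefSeq table of GRCm38.p6, which held 19 of the 28 members.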

Additional observations from a re-analysis of the deposited data

How the results depend on the processing

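With limma, 0 members and 0 genes overall passed an adjusted p of 0.05 in every alternative run, all probe sets included, and 0 passed 0.10 with all arrays. The lowest adjusted p of a member was 0.442, without intact array 3. Over all genes the lowest was 0.0536, 0.0596 and 0.0762 without deficient array 2, intact array 1 and intact array 3, so with those arrays left out genes outside the members would pass 0.10. The median member difference, 0.12 with all arrays, stayed positive throughout. With 1 array left out it ranged from 0.01 (without intact array 1) to 0.24, the members higher from 14 to 24, those at an unadjusted p under 0.05 from 0 to 5 and those whose groups did not overlap from 3 to 7, the upper ends of the last 2 without intact array 3. Without intact array 3, 1751 of all 18193 genes were at an unadjusted p under 0.05, against 1000 with all arrays. Fewer arrays overlap less easily, and without intact array 1 the groups lay apart for 12.0% of all genes upward and 10.4% downward. The share of all genes lying apart without intact array 3 is not given here, so the count of 7 has no background beside it. The replicate block left 0 members at an unadjusted p under 0.05. The numbers did not pair the arrays: the deviations of same-numbered arrays correlated across genes at −0.14, 0.01 and 0.04.

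Of 378 recomputed member differences 353 kept their sign, and 12 members kept it in all. Of the 25 that turned, 17 came from leaving out 1 array and 8 from other settings, and none was called. Those 8 were Trp53bp1 at −0.027 with quantile normalization, Trp53bp1 at −0.21, Topbp1 at −0.31 and Mre11a at 0.028 with probe sets averaged per gene, Trp53bp1 at −0.034 and Mre11a at 0.095 with shared-target probe sets left out, and Mre11a at 0.059 and Nbn at 0.027 with array weights. With 1 array left out the ranges were −0.095 to 0.20 for Atrip, −0.027 to 0.28 for Rad17, −0.042 to 0.21 for Hus1, −0.065 to 0.17 for Topbp1, −0.049 to 0.23 for Tipin, −0.24 to 0.30 for Trp53bp1, −0.13 to 0.088 for H2afx, −0.38 to 0.27 for Mre11a, −0.13 to 0.39 for Rad50, −0.35 to 0.24 for Nbn, −0.035 to 0.34 for Blm, −0.096 to 0.28 for Fancd2, −0.17 to 0.36 for Fanci, −0.018 to 0.52 for Parp1 and −0.43 to 0.23 for Prkdc. Beyond the arrays left out the cause was not tested. No detection call was used, and Bard1 was the one member near the array medians.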
